A study of Mus musculus with 16 samples.

Results

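The annexins are a family of cytosolic proteins that bind membrane phospholipids when calcium rises. Each is built from a conserved core of annexin repeats, which carries the calcium sites, and an amino-terminal tail that differs between members and holds the contacts to other proteins. They organise membrane domains, exocytosis, endocytosis and the resealing of torn membranes, and annexin A1 was originally described as lipocortin, a glucocorticoid-induced inhibitor of phospholipase A2. The family is described here in cells given an inhibitor of cytosolic phospholipase A2 alpha. Of the 33072 genes in the expression table, 9 were followed, namely Anxa1, Anxa2, Anxa3, Anxa4, Anxa5, Anxa6, Anxa7, Anxa8 and Anxa11. They were chosen by symbol as a family and matched by Ensembl gene identifier on GRCm38. The family was selected on the difference between CIX and vehicle in 4T1 cells, where Anxa8 rose most of all called genes, so the response of 4T1 is given as a description, with no p-value for the members and with counts past the threshold only beside those of all genes.

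RNA sequencing of poly(A) RNA was done on 2 mouse mammary carcinoma lines of the same BALB/c tumour, the metastatic line 4T1 and the non-metastatic line 67NR. Cells of each line received 15 µM CIX (cPLA2α inhibitor X, a synthetic derivative of an ω3-polyunsaturated fatty acid) or its vehicle DMSO for 24 h, which gave 4 groups of 4 biological replicates. Replicates carry the sample numbers of the labels, with 1, 5, 9 and 13 for 67NR vehicle, 2, 6, 10 and 14 for 67NR CIX, 3, 7, 11 and 15 for 4T1 vehicle, and 4, 8, 12 and 16 for 4T1 CIX, and values are listed in that order. The labels name no genetic change in either line, and both lines come from a single tumour.

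The libraries held between 21715700 and 29450629 estimated counts, and the first principal component, with 83.6% of the variance, separated the cell lines. Epithelial markers (Epcam, Cdh1, Krt8, Krt18, Krt19) summed to between 2480 and 2891 CPM (counts scaled to library size and composition) in 4T1, and to between 1.07 and 5.35 CPM in 67NR, so the carcinoma label of 67NR is not borne out by these defining markers. Mesenchymal markers (Vim, Cdh2, Col1a1, Col1a2, Pdgfrb) summed to 4699 to 5653 CPM in 67NR vehicle and 7510 to 8549 CPM in 67NR CIX, and to 1025 to 1172 CPM in 4T1 vehicle and 2449 to 2831 CPM in 4T1 CIX. Vim, the vimentin gene, made up nearly all of these sums, with 5077 ± 426 CPM in 67NR vehicle and 7679 ± 461 CPM in 67NR CIX (SD, n = 4), and in 4T1 it was the only one at 1 CPM or more in all samples of a group. The others differed after CIX in 67NR by -0.76 (Pdgfrb), -0.73 (Col1a1), -0.38 (Col1a2) and 0.10 (Cdh2) on the log2 scale, and none of the 5 passed the threshold there (limma-voom, adjusted p of 0.001). Of the 5 immune markers (Ptprc, Cd3e, Cd79a, Cd68, Adgre1), the macrophage glycoprotein gene Cd68 was the only one at 1 CPM or more in all samples of a group. The immune sum was 8 to 12.2 CPM in 67NR vehicle, 34.6 to 40.6 CPM in 67NR CIX, 52.4 to 88.8 CPM in 4T1 vehicle and 132 to 198 CPM in 4T1 CIX. The mesenchymal and immune sums moved with the lines and with CIX, mostly through Vim and Cd68. Other markers had lower means after CIX in 4T1, with Ptprc going from 1.22 to 0.497 CPM and Col1a2 from 1.25 to 0.258 CPM. Cd3e and Cd79a, at most 0.164 CPM in 4T1, were also lower on average. Col1a1 overlapped between CIX and vehicle there, Cdh2 and Pdgfrb were at most 0.0821 CPM, and Adgre1 was at 0. The sums are therefore not read as a shift of a cell type. The epithelial sum moved with the lines and overlapped between CIX and vehicle within each line, although in 4T1 Epcam differed by -0.78 ± 0.077 and Krt19 by 0.68 ± 0.14 on the log2 scale after CIX (SE, adjusted p = 0.000128 and 0.00374, limma-voom). The part of these markers in the annexin results was not tested. The endothelial markers (Pecam1, Cdh5, Kdr) summed to at most 2.69 CPM. In such bulk RNA a smaller number of cells of a kind and less RNA per cell cannot be told apart.

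The upstream sequence is shown for Anxa8, the gene at the floor in 67NR, and for Anxa11, a neighbour in the family on the same chromosome that was expressed in every sample. Upstream sequences were taken from RefSeq (GRCm38.p6), where 7 of the 9 members had at least 1 entry (Anxa3 and Anxa6 had no entry). Each run holds the 250 bases before the start, 5′ to 3′ on the plus strand, and capitals mark a matched motif.
Anxa8, chr14:34085729-34085978: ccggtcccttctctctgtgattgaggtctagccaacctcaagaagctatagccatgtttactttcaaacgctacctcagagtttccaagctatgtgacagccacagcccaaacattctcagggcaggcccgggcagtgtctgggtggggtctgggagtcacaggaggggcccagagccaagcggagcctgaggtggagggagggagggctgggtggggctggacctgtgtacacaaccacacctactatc
Anxa11, chr14:25841905-25842154: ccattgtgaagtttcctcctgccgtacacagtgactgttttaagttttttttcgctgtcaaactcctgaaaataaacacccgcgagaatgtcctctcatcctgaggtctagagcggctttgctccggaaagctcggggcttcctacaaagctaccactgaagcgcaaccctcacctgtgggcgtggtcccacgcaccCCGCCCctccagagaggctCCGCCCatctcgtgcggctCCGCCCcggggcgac
The motifs searched on both strands were the TATA box (TATAAA), the CCAAT box (CCAAT), the GC box bound by SP factors (GGGCGG), the AP-1 site (TGANTCA) and the E-box (CACGTG), of which no motif lies within another. Among 32851 upstream windows of the same length they were found in 12.4%, 33.8%, 32.7%, 6.75% and 6.02%, respectively. The Anxa8 window held none of these letters, nor did either of the 2 Anxa4 windows or the Anxa5 window. The Anxa11 window held GGGCGG at 3 places, read on the minus strand and beginning 53, 34 and 15 bases before the start. The windows also differed in CpG dinucleotides, of which Anxa8 had 4 and Anxa11 had 17, against a median of 6 over all windows. Fewer were found in the Anxa1 window, in 1 of the 2 Anxa4 windows and in 1 of the 2 Anxa7 windows, with 2 each.

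Anxa8 (ENSMUSG00000021950, chr14:34085981-34100571) encodes an annexin found in squamous and basal epithelia. Its estimated counts in 67NR were 0, 1, 6 and 3 in vehicle and 4, 4, 0 and 1 in CIX, which is at or near the 3 counts taken as detected, so no fold was computed there. In 4T1 vehicle the level was 1.32, 0.306, 0.602 and 0.821 CPM, and in 4T1 CIX it was 12.5, 10.9, 7.87 and 12.5 CPM. All 4 treated 4T1 samples lay above all 4 vehicle samples, and the lowest treated sample was still several times the highest vehicle sample. The family was chosen on this contrast, where Anxa8 rose most, so the gap and the values below are a description only. The log2 difference between CIX and vehicle in 4T1 was 3.93 ± 0.38 (SE), with a range from 3.57 to 4.25 when each sample was left out in turn. Even so it remained the least expressed member per transcript length, at 8.87 ± 1.83 TPM (counts scaled to transcript length and library size, approximate, mean ± SD, n = 4) in 4T1 CIX. Anxa8 passed the filter on low values in 4T1 with its 4 treated samples and vehicle replicate 3, the only vehicle sample that reached 1 TPM (1.11 TPM). It was left out of the tests in 67NR and between the cell lines, because too few samples reached 1 TPM.

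The gene A630023A22Rik lies across Anxa8 on the opposite strand (chr14:34051126-34102754). Its level was at most 0.131 CPM in any group, and the libraries were made with a stranded kit. Of the genes that passed the filter, the 3 nearest at lower coordinates were Ercc6, Arhgap22 and Mapk8, and the 3 nearest at higher coordinates were Rpl23a-ps3, Shld2 and Glud1. None of these 6 passed the threshold of adjusted p below 0.001 for CIX in 4T1 (limma-voom). The nearest, the pseudogene Rpl23a-ps3 at a distance of 70084 bases, was at 0.497 ± 0.417 CPM in 4T1 vehicle and 0.865 ± 0.599 CPM in 4T1 CIX (SD, n = 4). Mapk8, the gene of the kinase JNK1, differed by -0.63 ± 0.13 on the log2 scale (SE, adjusted p = 0.00362, limma-voom), and Ercc6, a DNA repair gene, by -0.79 ± 0.16 (adjusted p = 0.00339).

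Likeness to Anxa8 was measured as the root mean square distance of centred log2(CPM + 0.5) over the 16 samples, among 12628 genes. The nearest genes were B4galt4 (0.374), a galactosyltransferase, Dcp1b (0.534), a decapping factor, Ccn4 (0.536), a matricellular protein of the WNT pathway, Aifm3 (0.583) and Tcea3 (0.639), a transcription elongation factor. B4galt4 was at 0 CPM in all 67NR samples, at 0.955 ± 0.331 CPM in 4T1 vehicle and at 6.81 ± 2.06 CPM in 4T1 CIX (SD, n = 4). Its profile follows from how it was picked, and shared regulation was not tested. With a pseudocount of 0.1, B4galt4 and Dcp1b stayed nearest, and Nxph4 and Myh7b entered ahead of Ccn4 in place of Aifm3 and Tcea3.

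**Figure D1:**
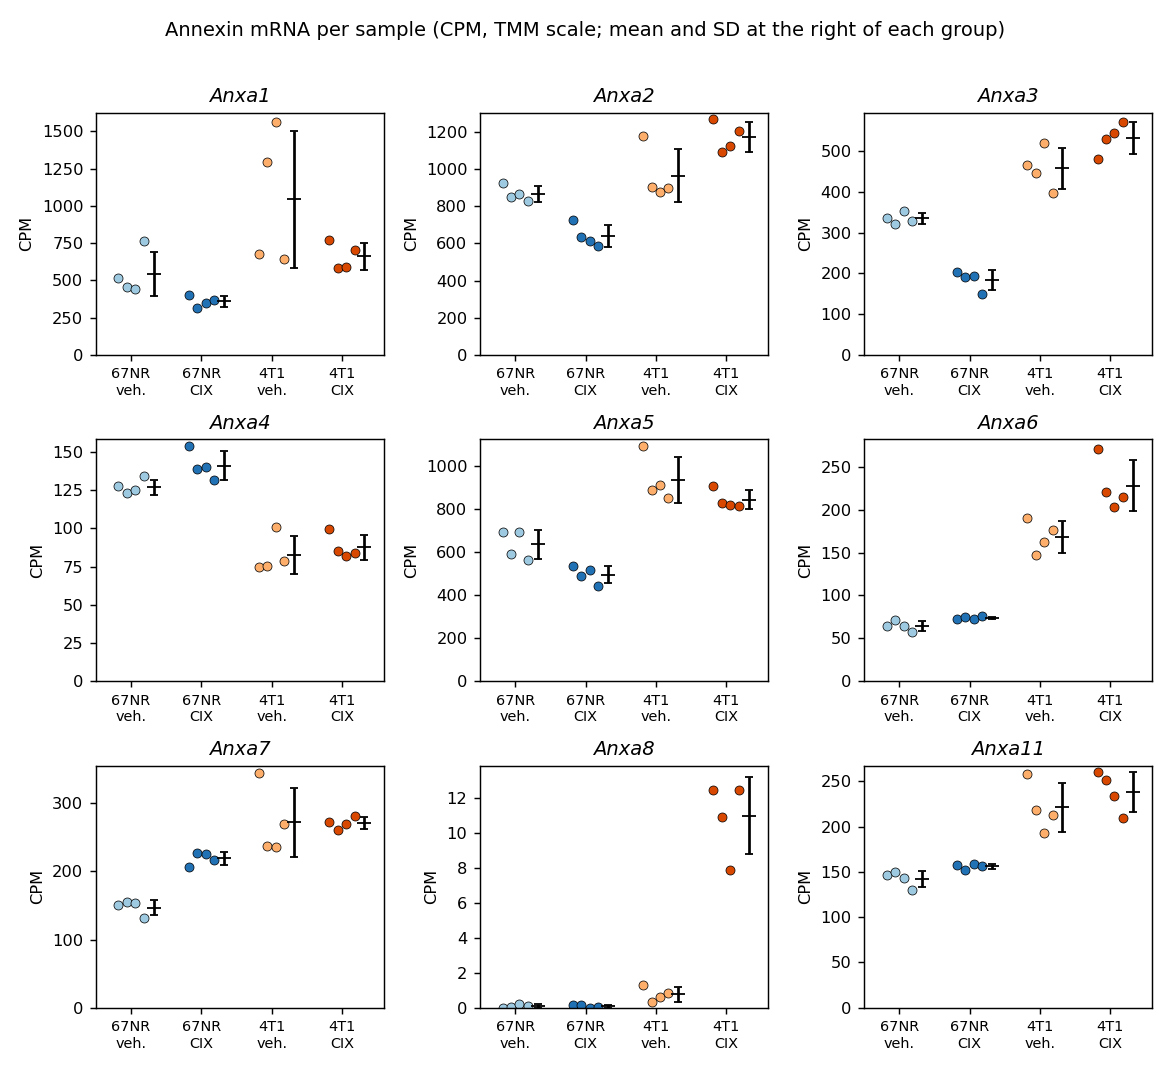
Levels of the 9 annexins in CPM (vertical axis, scaled for library composition) in 67NR and 4T1 cells given vehicle or CIX; each point is a sample, and the bar at the right of a group is its mean with SD (n = 4). The treated 4T1 samples of Anxa8 lie between 7.87 and 12.5 CPM, above the vehicle samples at 0.306 to 1.32 CPM, and Anxa3 in 67NR falls from 322 to 354 CPM to 149 to 204 CPM.

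Annexin levels were compared with each other per transcript length only, as approximate TPM. In 67NR vehicle the order was Anxa2 (959 TPM), Anxa5 (845), Anxa1 (732), Anxa3 (492), Anxa7 (131), Anxa4 (110), Anxa11 (75.9), Anxa6 (34.3) and Anxa8 (0.079). There the samples of Anxa2 and Anxa5, and those of Anxa5 and Anxa1, overlapped, while every other neighbouring pair did not. In 4T1 vehicle Anxa1 (1488 ± 612 TPM), Anxa5 (1319 ± 142) and Anxa2 (1133 ± 172) led with overlapping samples, followed by Anxa3 (712 ± 53.6) and Anxa7 (257 ± 49.6). Anxa11, Anxa6 and Anxa4 came next in 4T1 vehicle at 125, 95.2 and 75.3 TPM, each overlapping its neighbour. The order of Anxa2, Anxa5, Anxa1 and Anxa3 in the treated cells was the same in 67NR and 4T1, with Anxa2 at 702 ± 42.7 TPM in 67NR and 1291 ± 88.4 TPM in 4T1. Of these neighbours, Anxa2 and Anxa5 overlapped in 67NR CIX, and Anxa1 and Anxa3 in 4T1 CIX. With the longest transcript as the length, Anxa5 stood before Anxa2 in 67NR CIX, Anxa11 moved ahead of Anxa4 in both 67NR groups and of Anxa7 in 67NR vehicle, and Anxa6 ahead of Anxa11 in 4T1 CIX.

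Summed over the 9 members, the level was 3378 ± 125 TPM in 67NR vehicle, 2543 ± 113 TPM in 67NR CIX, 5205 ± 462 TPM in 4T1 vehicle and 4653 ± 261 TPM in 4T1 CIX (SD, n = 4). Anxa1, Anxa2, Anxa3 and Anxa5 made up most of each sum. Anxa8 was 0.0128% of the sum in 4T1 vehicle and 0.19% in 4T1 CIX.

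**Figure D2:**
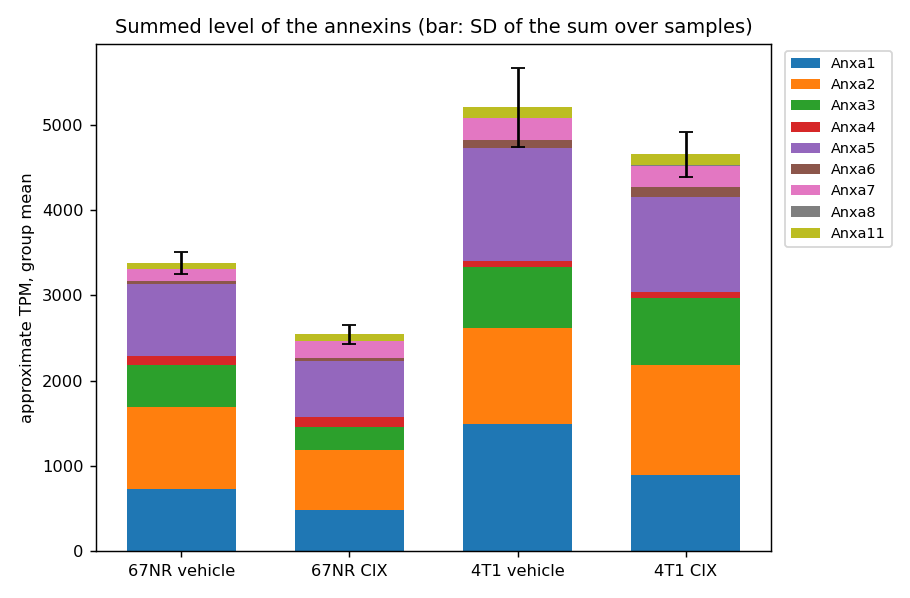
Stacked group means of the 9 annexins in approximate TPM (vertical axis) for the 4 groups, with the SD of the sum over 4 samples as the black bar. The sum was 3378 TPM in 67NR vehicle and 2543 TPM in 67NR CIX, and 5205 and 4653 TPM in 4T1; the share of Anxa8 is too small to see.

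The response to CIX in 67NR was not used to choose the members. Of the 8 members tested, the treated and untreated samples did not overlap for 7, with Anxa1, Anxa2, Anxa3 and Anxa5 lower and Anxa6, Anxa7 and Anxa11 higher, while 23.3% of the 11583 genes tested did not overlap. The calls were fewer, since none of the 8 passed an adjusted p below 0.001 (limma-voom with Benjamini-Hochberg adjustment), a threshold that 0.389% of all genes passed. Of these members 6 had an unadjusted p below 0.05 against 32.8% of all genes, and 4 had an adjusted p below 0.05 against 17.8% of all genes. By edgeR's quasi-likelihood test 0 were called at 0.001, and by the Wald test of DESeq2 3 were called, namely Anxa2, Anxa3 and Anxa7, against 8.98% of all genes. The median log2 difference was -0.13 over the members and -0.0062 over all genes tested.

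Anxa3 (ENSMUSG00000029484, chr5:96793339-96845966) encodes a small annexin known from neutrophils and from several carcinomas. In 67NR it was at 335, 322, 354 and 328 CPM in vehicle and at 204, 192, 193 and 149 CPM in CIX. The highest treated sample was well below the lowest vehicle sample, with a log2 difference of -0.89 ± 0.10 (SE, adjusted p = 0.00133, limma-voom). In 4T1 the levels were 466, 447, 521 and 397 CPM in vehicle and 481, 530, 546 and 573 CPM in CIX. These groups overlapped, with a difference of 0.21 ± 0.099. The response of 4T1 minus that of 67NR was 1.09 ± 0.14 on the log2 scale.

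Anxa2 (ENSMUSG00000032231, chr9:69453620-69491795) encodes a plasminogen receptor that forms a tetramer with S100A10 at the cell surface. Its levels in 67NR were 927, 849, 867 and 828 CPM in vehicle and 724, 635, 614 and 588 CPM in CIX, again without overlap. The log2 difference was -0.46 ± 0.074 (SE, adjusted p = 0.00454, limma-voom). In 4T1 the values were 1181, 902, 877 and 900 CPM in vehicle and 1268, 1094, 1122 and 1205 CPM in CIX, so that only vehicle replicate 3 reached into the treated range. The difference in 4T1 was 0.27 ± 0.11, and the response of 4T1 minus that of 67NR was 0.73 ± 0.13.

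Anxa1 (ENSMUSG00000024659, chr19:20373428-20390944) encodes the lipocortin that signals through formyl peptide receptors when released. In 67NR it was at 517, 458, 439 and 763 CPM in vehicle and at 400, 315, 348 and 371 CPM in CIX. Vehicle replicate 13 stood above the other samples, and the groups did not overlap. The difference was -0.59 ± 0.18 on the log2 scale (SE, adjusted p = 0.0519, limma-voom), or -0.40 without replicate 13. In 4T1 vehicle Anxa1 was at 674, 1297, 1561 and 644 CPM (1044 ± 458, mean ± SD, n = 4), with replicates 7 and 11 well above replicates 3 and 15. The treated 4T1 samples were at 770, 585, 590 and 705 CPM, which spans the lower pair, and the difference of -0.57 ± 0.28 ranged from -0.77 to -0.35 when samples were left out in turn. The response of 4T1 minus that of 67NR was 0.014 ± 0.36.

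Pla2g4a, the gene of the enzyme that CIX inhibits, was also highest in 67NR vehicle replicate 13, at 324 CPM against 60 to 81.1 CPM in the other vehicle samples. In 4T1 vehicle it was at 65.3, 94.4, 162 and 58.7 CPM, so that replicates 7 and 11 were again the higher pair. What sets these samples apart was not tested. Pla2g4a itself differed by 0.28 ± 0.48 (SE) after CIX in 67NR and by 0.61 ± 0.30 in 4T1 on the log2 scale (adjusted p = 0.727 and 0.131, limma-voom). Leaving out a sample gave 0.0074 (without replicate 1) to 0.84 (without replicate 13) in 67NR and 0.41 (without replicate 15) to 0.90 (without replicate 11) in 4T1.

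Anxa5 (ENSMUSG00000027712, chr3:36448923-36475894) encodes the phosphatidylserine-binding annexin used as a probe for dying cells. The samples of 67NR were at 693, 590, 694 and 565 CPM in vehicle and at 534, 488, 516 and 443 CPM in CIX. Each treated sample was below each vehicle sample, by -0.38 ± 0.088 on the log2 scale (SE, adjusted p = 0.0204, limma-voom). In 4T1 Anxa5 was at 1091, 890, 910 and 853 CPM in vehicle and at 909, 828, 821 and 814 CPM in CIX, with a difference of -0.16 ± 0.094 and overlapping samples.

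Anxa7 (ENSMUSG00000021814, chr14:20455260-20480133) encodes synexin, which promotes membrane fusion during secretion. In 67NR it was at 150, 155, 153 and 131 CPM in vehicle and at 207, 227, 225 and 216 CPM in CIX. The treated samples were all higher, and the log2 difference was 0.56 ± 0.065 (SE, adjusted p = 0.00143, limma-voom). In 4T1 the groups overlapped fully, at 344, 237, 236 and 269 CPM in vehicle and 273, 261, 270 and 281 CPM in CIX, with a difference of -0.0024 ± 0.12. The response of 4T1 minus that of 67NR was -0.56 ± 0.14.

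Anxa6 (ENSMUSG00000018340, chr11:54979108-55033445) encodes the largest member, with a doubled core, which takes part in endocytosis and cholesterol traffic. In 67NR it was at 64.6, 71.3, 64.0 and 57.5 CPM in vehicle and at 72.7, 74.5, 72.6 and 75.6 CPM in CIX. The ranges missed each other narrowly, and the difference of 0.18 ± 0.068 had an adjusted p of 0.0958 (limma-voom). In 4T1 the values were 190, 147, 162 and 176 CPM in vehicle and 271, 221, 203 and 215 CPM in CIX. Anxa6 was, beside Anxa8, the only member whose 4T1 groups did not overlap, with a difference of 0.41 ± 0.12.

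Anxa11 (ENSMUSG00000021866, chr14:25842156-25886804) encodes a long-tailed annexin that tethers RNA granules to lysosomes. In 67NR it was at 147, 150, 143 and 130 CPM in vehicle and at 157, 152, 159 and 156 CPM in CIX, with a difference of 0.12 ± 0.057 (SE, adjusted p = 0.196, limma-voom). In 4T1 it was at 258, 218, 193 and 213 CPM in vehicle and at 260, 251, 234 and 209 CPM in CIX, with a difference of 0.097 ± 0.12. Of its 31-base words 15.1% were shared with the gene Gm2260, which was at 21.0 to 58.2 CPM, so reads of the pair could have been split between them. Among the other members that share was at most 3.2%.

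Anxa4 (ENSMUSG00000029994, chr6:86736840-86793584) encodes an annexin of secretory epithelia. It was at 128, 123, 125 and 134 CPM in 67NR vehicle and at 154, 139, 140 and 132 CPM in 67NR CIX, the single tested member whose 67NR groups overlapped. The difference was 0.13 ± 0.073 (SE, adjusted p = 0.259, limma-voom). In 4T1 it was at 74.8, 75.5, 101 and 78.8 CPM in vehicle and at 99.7, 85.5, 81.7 and 83.9 CPM in CIX, with a difference of 0.077 ± 0.12.

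In 4T1, the contrast that the choice of members used, Anxa8 was the 1 member of 9 past the threshold, beside 9.28% of the 11677 genes tested. The groups did not overlap for 2 of the 9, beside 39.9% of all genes. The median log2 difference was 0.097 over the 9 members and 0.087 over the 8 without Anxa8, with -0.0071 over all genes. The response of 4T1 minus that of 67NR holds the same contrast, and 2 of 9 members, Anxa2 and Anxa3, passed the threshold there, beside 7.86% of 12629 genes. Since that contrast chose the family, nothing is read from either count. Over the 16 fits without 1 sample, the difference of Anxa2 lay between 0.69 and 0.83 and passed the threshold in 2. That of Anxa3 lay between 0.99 and 1.15 and passed in all 16. No value is given for Anxa8, whose 67NR samples held hardly any counts.

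**Figure D3:**
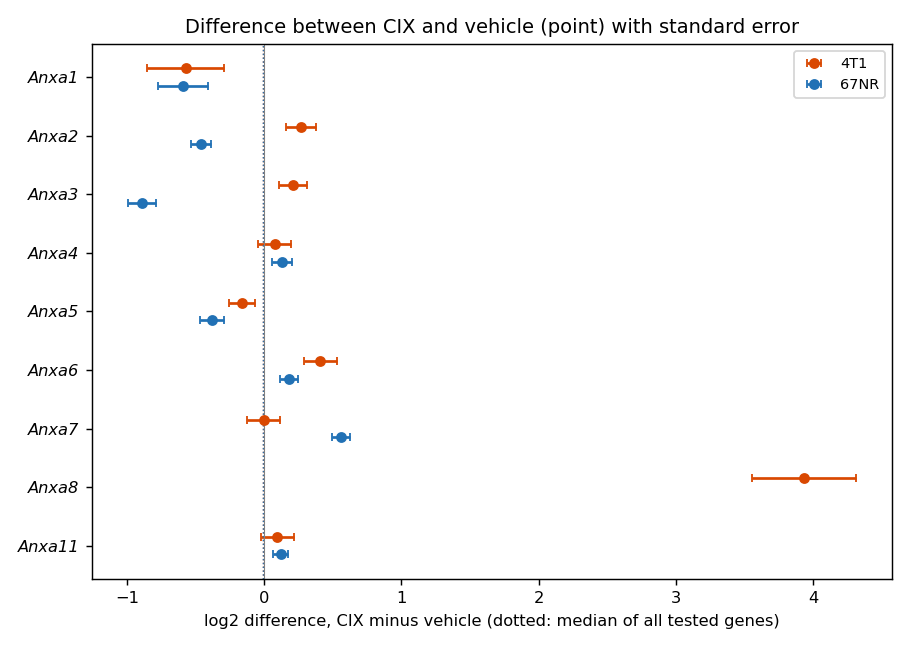
Log2 difference between CIX and vehicle (horizontal axis; points with standard errors from limma-voom) for the 9 annexins in 4T1 and 67NR; dotted lines give the median of all genes tested. Anxa2 and Anxa3 lie right of zero in 4T1 (0.27 and 0.21) and left of it in 67NR (-0.46 and -0.89), and Anxa8, at 3.93 in 4T1, has no point in 67NR because it was not tested there.

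The cell lines were compared within each treatment, on the same samples as above, so these differences share groups with the responses. Under vehicle 3 of the 8 tested members were called higher in 4T1 and 1 was called lower. Anxa6 was 1.38 ± 0.10 higher on the log2 scale (SE, adjusted p = 3.78e-06, limma-voom), Anxa7 0.86 ± 0.13 (adjusted p = 0.000294) and Anxa11 0.61 ± 0.10 (adjusted p = 0.000495), while Anxa4 was lower (-0.65 ± 0.11, adjusted p = 0.00047). These 4 of 8 members passed the threshold, against 40.0% of the 11058 genes tested. The 3 that were higher compare with 20.4% of genes, and the 1 that was lower with 19.6%. Anxa5 (0.55 ± 0.10, adjusted p = 0.00121) and Anxa3 (0.44 ± 0.089, adjusted p = 0.00191) did not pass, although their samples did not overlap between the lines. Both were called by DESeq2 (adjusted p = 2.17e-05 and 5.19e-05, with 51.9% of all genes called) and by limma-voom with all 16 samples in the fit (4.41e-05 and 0.000612, with 46.3%). Anxa1 differed by 0.86 ± 0.31 with overlapping samples (adjusted p = 0.035), and Anxa2 by 0.13 ± 0.11 (adjusted p = 0.292). The median was 0.58 over the members and -0.0098 over all genes.

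Several of these calls lay close to the threshold, and fits with 7 samples moved them across it, with limma-voom throughout. Anxa4 was not called without 67NR vehicle replicates 1, 5 or 9 or 4T1 vehicle replicates 3, 7 or 15 (adjusted p from 0.00105 to 0.00293). Anxa7 was not called without 67NR vehicle replicates 1, 5, 9 or 13 (from 0.00103 to 0.00122), nor Anxa11 without 67NR vehicle replicates 1, 5, 9 or 13 or 4T1 vehicle replicates 7 or 15 (from 0.00107 to 0.00257). Anxa3 was called without 4T1 vehicle replicate 15 (0.000511), and Anxa5 without 4T1 vehicle replicate 3 (0.000779). Anxa6 was called in all 8 fits. With a block for the sets of consecutive sample numbers, an alternative chosen after seeing the data, Anxa6 alone was called, against 27.2% of all genes, and Anxa4, Anxa7 and Anxa11 were not (adjusted p = 0.00305, 0.0016 and 0.00218).

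In the treated cells 7 of 8 members passed the threshold, against 34.2% of the 10949 genes tested. Anxa6 (1.61 ± 0.10, adjusted p = 1.01e-06, limma-voom) and Anxa3 (1.53 ± 0.10, adjusted p = 1.43e-06) showed the widest gaps. Anxa1 was 0.88 ± 0.11 higher in 4T1 (adjusted p = 9.33e-05), Anxa2 0.87 ± 0.081 (adjusted p = 1.15e-05), Anxa5 0.77 ± 0.076 (adjusted p = 1.73e-05) and Anxa11 0.60 ± 0.085 (adjusted p = 0.000171). Anxa4 was again lower (-0.69 ± 0.092, adjusted p = 0.000117). The 6 higher ones compare with 18.3% and the 1 lower one with 15.9%. Anxa7 did not pass (0.31 ± 0.067, adjusted p = 0.00247), although its samples did not overlap. Without 67NR CIX replicates 6 or 14, Anxa11 was not called (adjusted p = 0.00127 and 0.00105). The median was 0.82 over the members and 0.0032 over all genes.

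**Figure D4:**
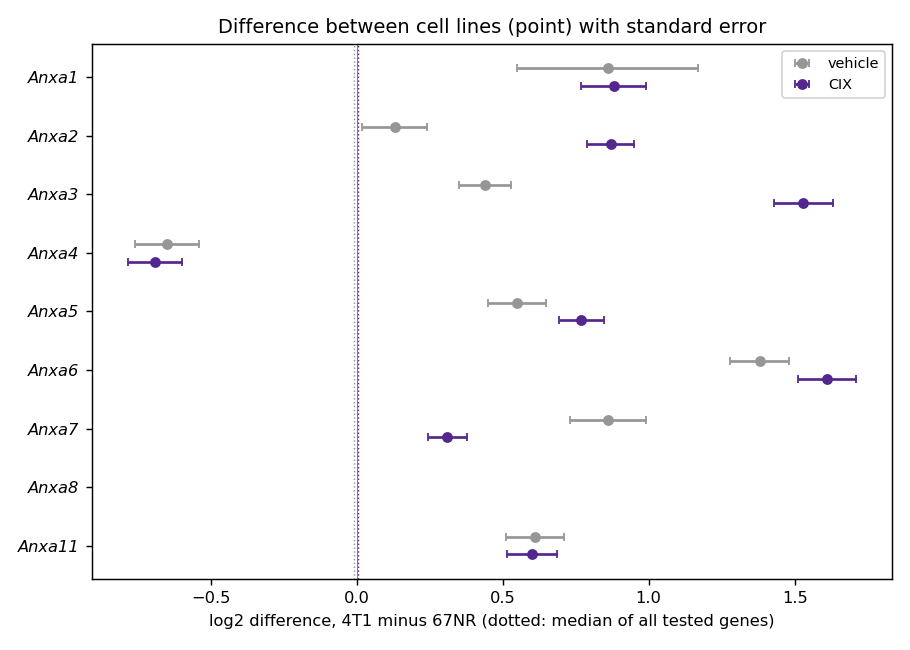
Log2 difference between 4T1 and 67NR (horizontal axis; points with standard errors from limma-voom) for the tested annexins under vehicle and under CIX; dotted lines give the median of all genes tested, and Anxa8 was not tested. Anxa3 goes from 0.44 under vehicle to 1.53 under CIX, Anxa2 from 0.13 to 0.87 and Anxa7 from 0.86 to 0.31, while Anxa4 is lower in 4T1 in both.

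The family has further members in the table. Anxa9 was low, with 12.2 to 13.3 CPM in 67NR vehicle and 3.66 to 5.33 CPM in 4T1 vehicle, and was lower in 4T1 under vehicle (-1.52 ± 0.14, SE, adjusted p = 1.56e-05, limma-voom) and under CIX (-2.17 ± 0.27, adjusted p = 8.04e-05). After CIX it differed by -1.02 ± 0.24 in 4T1 and -0.36 ± 0.17 in 67NR, in both lines without overlap (adjusted p = 0.00762 and 0.177, limma-voom, and 0.000639 and 0.195 by DESeq2). Anxa10 was at 0 in all samples, and Anxa13 was at most 0.43 CPM.

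The S100 proteins are calcium-binding partners that dock on annexin tails, S100A10 on annexin A2, S100A11 on annexin A1 and S100A6 on annexins A2, A6 and A11. S100a10 was at 716, 681, 599 and 625 CPM in 67NR vehicle and at 254, 183, 185 and 191 CPM in 4T1 vehicle, a difference of -1.71 ± 0.12 (SE, adjusted p = 2.37e-06, limma-voom). Under vehicle 3 of the 4 partners were called lower in 4T1, beside 19.6% of all genes, with S100a6 at -1.52 ± 0.12 and S100a4, a metastasis-associated S100 gene, at -3.45 ± 0.22 (adjusted p = 4.88e-06 and 1.45e-06). S100a11 differed by -0.73 ± 0.17 (adjusted p = 0.00358). The same 3 were called lower in 4T1 under CIX, beside 15.9% of all genes, S100a10 by -1.07 ± 0.11, S100a6 by -0.57 ± 0.10 and S100a4 by -2.92 ± 0.19 (adjusted p = 2.7e-05, 0.000841 and 1.23e-06). The call of S100a6 under CIX was kept in 3 of the 8 fits that left out 1 sample, and was lost without 67NR CIX replicates 6 or 10 or 4T1 CIX replicates 8, 12 or 16.

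After CIX, none of the 4 partners passed the threshold in either line by limma-voom. DESeq2 called 2 of them in 67NR, S100a6 and S100a4 (adjusted p = 0.000162 and 0.000974), beside 8.98% of all genes. S100a6, like Anxa2, differed in the opposite direction in the lines, by 0.41 ± 0.12 in 4T1 and -0.53 ± 0.10 in 67NR (adjusted p = 0.0206 and 0.00901). The response of 4T1 minus that of 67NR was 0.94 ± 0.16 for S100a6 (adjusted p = 0.000496), a call kept in 4 of the 16 fits that left out 1 sample (without replicates 2, 3, 12 or 13), while S100a10 had 0.63 ± 0.17 (adjusted p = 0.0102). With the block for number sets S100a10 was called too (0.63 ± 0.092, adjusted p = 0.000304). In each group the sample with the lowest number (1, 2, 3 or 4) was the highest of its group for Anxa2, S100a10 and S100a11, and it was so in 3 of 4 groups for Anxa5, S100a6 and S100a4. It was the highest in 1 of 4 groups for Anxa3 and Anxa7, and in 2 of 4 for the other 5 members. The numbers run in 4 consecutive sets that each hold every group once, and the labels name no batch. Each treated sample was set against the vehicle sample of its set. Anxa2, Anxa3, S100a10, S100a11 and S100a6 were higher after CIX in 4 of 4 sets in 4T1 and lower in 4 of 4 in 67NR. Anxa5 was lower in 4 of 4 sets in both lines, and Anxa6 was higher in 4 of 4 in both. S100a4 was lower after CIX in 3 of 4 sets in 4T1 and in 4 of 4 in 67NR. Any pairing gives 4 of 4 where the groups do not overlap. This held in 67NR for Anxa2, Anxa3, Anxa5, Anxa6, S100a6 and S100a4, and in 4T1 for Anxa6. The 4T1 counts of the members use the contrast that chose the family and are a description.

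**Figure D5:**
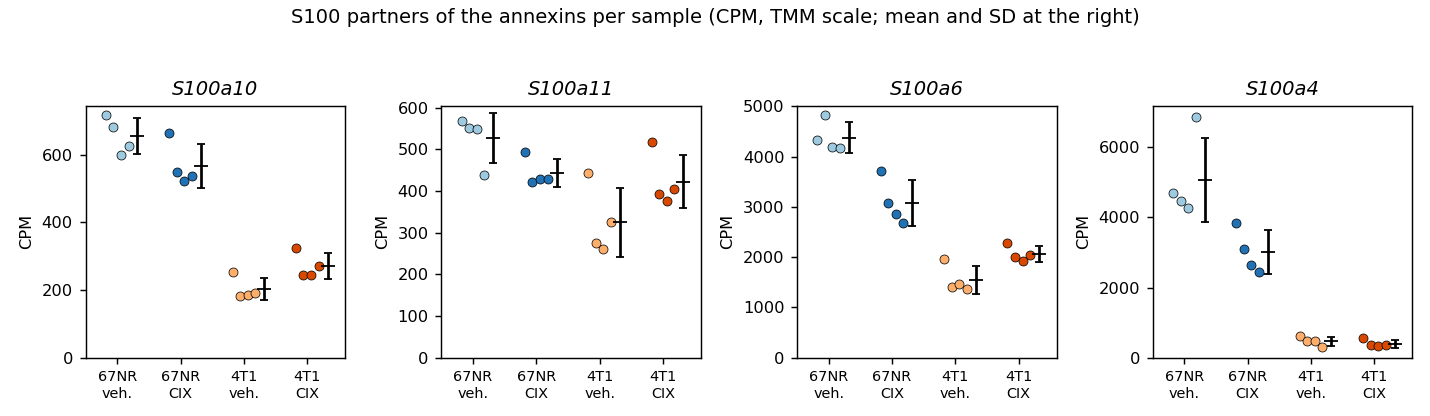
Levels of S100a10, S100a11, S100a6 and S100a4 in CPM (vertical axis) in 67NR and 4T1 cells given vehicle or CIX; each point is a sample, with the mean and SD of 4 at the right. S100a4 lies at 4275 to 6847 CPM in 67NR vehicle and at 317 to 615 CPM in 4T1 vehicle.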

How the data were processed

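RNA of 4T1 and 67NR cells was sequenced from 4 biological replicates in each of 4 groups, and groups were taken from the labels. The authors quantified reads with salmon (version 0.12 per the labels' processing notes) against the Ensembl mouse transcripts (GRCm38), used tximport to obtain gene values, and deposited these as estimated counts without normalization. The labels' processing notes list the human build GRCh38, but the identifiers are of mouse. Gene names and positions came from GENCODE vM21, which held 32911 of 33072 genes.

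Estimated counts were rounded. CPM were scaled by TMM over all samples. TPM was approximated by dividing the counts by the mean transcript length. Genes below 1 TPM in more than 3 samples were left out, after the filter of the study but with the approximated TPM and within each comparison. Then limma-voom (limma 3.58.1, edgeR 4.0.16, R 4.3.3) called genes whose adjusted p-value (Benjamini-Hochberg) was below 0.001. Alternatives were edgeR's quasi-likelihood test, DESeq2 1.42.0, other scalings, no filter, all 16 samples in the fit, a threshold of 0.05 and leaving out each sample. A block for the sets of consecutive sample numbers was added after seeing the data. At this depth 3 counts were about 0.1 CPM, which covers counting error only.

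The members and the gene lists were chosen with earlier results of these data known. Named genes were all 9 members, genes of the lists called between lines or in the interaction (or the most abundant), the 3 neighbours of Anxa8 on each side and the 5 genes most like it. From the larger lists only some of these are named, and 1 result is not reported here.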

Additional observations from a re-analysis of the deposited data

Results flagged for a closer look

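Of the 36 groups of 4 samples examined (9 members in 4 groups), 3 held a sample farther from the rest than Dixon's test allows, where chance gives about 1.8. Anxa2 was at 1181 CPM in 4T1 vehicle replicate 3, against 877 to 902 CPM in the other 3 samples. Anxa4 was at 101 CPM in 4T1 vehicle replicate 11, against 74.8 to 78.8 CPM. Anxa5 was at 909 CPM in 4T1 CIX replicate 4, against 814 to 828 CPM. The interaction term of limma-voom (response of 4T1 minus that of 67NR) was past the threshold at 0.73 on the log2 scale for Anxa2 and at 1.09 for Anxa3. This term holds the 4T1 contrast on which the family was selected, so both values are a description, and for Anxa2 the threshold was passed in 2 of the 16 fits that left out 1 sample.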

How the results depend on the processing

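None of the members called in a comparison changed direction under the alternatives run, but the number called depended on the test and the threshold. At an adjusted p below 0.05, 2 of 9 members were called in 4T1, beside 4982 of 11677 genes. In 67NR 4 of 8 were called, beside 2056 of 11583. Between the lines 7 of 8 were called under vehicle, beside 7456 of 11058, and 8 of 8 under CIX, beside 6992 of 10949. In the response of 4T1 minus that of 67NR 4 of 9 were called, beside 3701 of 12629. DESeq2 called 3 members in 67NR, and 3095 genes in 4T1, 1040 in 67NR and 1981 in the response difference. With all 16 samples in the fit, 1 member (Anxa3) was called in 67NR and 151 genes, and 2689 genes in 4T1. In that fit Anxa1 was not called between the lines under CIX (adjusted p = 0.00758, limma-voom). Without the filter on low values 5751 genes were called between the lines under CIX. In the response difference 1 of 9 members was called by edgeR, beside 1013 of 12629 genes, and 1 with library size alone, beside 909. In 67NR, scaling by library size alone moved the share of called genes that were higher after CIX from 46.7% of 45 to 36.8% of 38, with 0 members called. In 4T1 that share moved from 57.4% of 1084 to 49% of 1038. The share of called response differences above 0 moved from 61.1% to 54%. Leaving out a sample gave 286 to 1046 called genes in 4T1 (721 or fewer without replicates 3, 7, 8, 11, 12, 15 or 16, with 286 without replicate 7), 0 to 70 in 67NR (0 without replicates 5, 6, 9, 10 or 14, 2 without 1, 15 without 13, 70 without 2) and 652 to 1071 in the response difference (652 without replicate 7). It gave 1 to 4 called members between the lines under vehicle, beside 4107 to 4922 called genes, and 1 to 2 in the response difference. These fits hold fewer samples. The groups share no replicate numbers, but each set of 4 consecutive numbers holds every group once. A replicate block for these sets, chosen after seeing the data, gave 1 called member between the lines under vehicle (Anxa6, beside 27.2% of all genes) and 0 called genes in 67NR by limma-voom (3983 with an unadjusted p below 0.05), and the same member calls as without it elsewhere. Deviations from the group means correlated above 0.1 for 7 of 24 same-set pairs of samples (from -0.264 to 0.394 across genes), and were highest with the own set in 12.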

Other observations

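Of the plasminogen system, Plat, the tissue plasminogen activator, was 2.08 ± 0.12 higher on the log2 scale in 4T1 under vehicle (SE, adjusted p = 8.46e-07, limma-voom). Plau, the urokinase gene, was at 426 to 461 CPM in 4T1 vehicle and at most 0.792 CPM in 67NR vehicle, and was not tested between the lines. Plg was not tested. Fpr2 and Fpr3, receptors for annexin A1, were at 0 in all samples, and Fpr1 was at most 0.255 CPM.

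Among 12 tested membrane repair and annexin-binding genes, 3 were called higher and 4 lower in 4T1 under vehicle (limma-voom), beside 20.4% and 19.6% of all genes. Cav1, the caveolin of plasma membrane pits, was lower by -3.72 ± 0.20 and Capns1, the small calpain subunit, by -2.19 ± 0.18, while Capn1 was 1.71 ± 0.13 higher (SE, adjusted p = 6.24e-07, 6.27e-06 and 4.75e-06). Cav1 and Capns1 were also the 2 genes of this list called in the response of 4T1 minus that of 67NR, beside 7.86% of all genes (1.49 ± 0.24 and 1.21 ± 0.20, adjusted p = 0.000346 and 0.000322), calls kept in 15 and 12 of the 16 fits that left out 1 sample (Cav1 lost without replicate 15, Capns1 without replicates 1, 5, 7 or 10). Copines share calcium-dependent lipid binding with annexins. Of the 4 copines tested in 4T1, 2 were called after CIX, beside 9.28% of all genes. Cpne2 rose after CIX in 4T1 from 8.12 ± 1.65 to 35.8 ± 2.60 CPM (SD, n = 4), by 2.14 ± 0.16 on the log2 scale (SE, adjusted p = 4.47e-05, limma-voom), and Cpne1 rose by 1.07 ± 0.13 (adjusted p = 0.000331), which was kept in 3 of 8 such fits (not without replicates 3, 7, 8, 15 or 16). Cpne8 differed by -0.70 ± 0.12 (adjusted p = 0.0014) and Cpne3 by 0.19 ± 0.13 (adjusted p = 0.255). The response of Cpne2 differed between the lines by 1.88 ± 0.17 (adjusted p = 4.18e-06).

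Of 6 tested genes of the glucocorticoid receptor and its targets, Dusp1, a phosphatase of MAP kinases, was called in 4T1 (0.91 ± 0.12, SE, adjusted p = 0.000567, limma-voom). That call was kept in 1 of 8 such fits (without replicate 4) and was lost with the block for number sets (0.90 ± 0.13, adjusted p = 0.00159, limma-voom). Dusp1 was also called in the response of 4T1 minus that of 67NR (1.51 ± 0.14, adjusted p = 4.8e-06). It was the 1 gene of this list called in each, beside 9.28% and 7.86% of all genes. Under vehicle 2 of the 6 were called higher and 2 lower in 4T1, beside 20.4% and 19.6% of all genes. Nr3c1, the receptor itself, was lower in 4T1 under vehicle (-1.51 ± 0.15, adjusted p = 2.53e-05). Of the 4 genes of cPLA2 and prostaglandin synthesis, 1 was called higher and 2 lower in 4T1 under vehicle, beside 20.4% and 19.6% of all genes. Ptgs2 was higher in 4T1 under vehicle (2.44 ± 0.13, adjusted p = 4.91e-07) and Ptgs1 lower (-2.28 ± 0.076, adjusted p = 8.67e-08). Ptges differed by -1.85 ± 0.34 (adjusted p = 0.000961), but was not called by edgeR (adjusted p = 0.00565) and was called in 1 of 8 such fits (without 4T1 vehicle replicate 3).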
